A study of Homo sapiens with 4 samples.

Results

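The 8 genes described here encode proteins that bind actin monomers: the β-thymosins TMSB10 and TMSB4X, the cofilins CFL1 and CFL2, destrin (DSTN), the profilins PFN1 and PFN2, and the cyclase-associated protein CAP1. The set was chosen by PABPC4 peak height, since TMSB10 held one of the tallest peaks of the list, so the PABPC4 heights are given as a description and no test was made on them. Their peaks were found by the NCBI Gene ID that the deposited lists give each peak. They account for 8 of the 13328 genes with an entry in either list, 26 of 63507 PABPC4 peak positions and 2 of 9107 HNRNPC peak positions. Binding was mapped by cross-linking and immunoprecipitation (CLIP) in MDA-MB-231, an established line of triple-negative breast cancer cells, with no other genotype or treatment. Cells were exposed to ultraviolet light at 254 nm and 400 mJ per square centimetre, which bonds proteins to the RNA they touch, and the RNA fragments pulled down with each antibody were sequenced as tags. HNRNPC, which had 2 samples, is a nuclear RNA-binding protein with a preference for U runs. PABPC4, with another 2 samples, is a poly(A)-binding protein that shuttles between nucleus and cytoplasm. It was mapped by PAPERCLIP, in which reverse transcription starts from the poly(A) tail and tags mark mRNA 3′ ends. Both samples of a protein had been merged into 1 peak list before deposit, and the spread between replicates is therefore unknown for all values.

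Actin cycles between monomers and filaments, and the monomer pool is held by a few small proteins. β-thymosins sequester monomers bound to ATP. Profilins exchange the nucleotide on the monomer and deliver it to growing filament ends. Cofilins and destrin sever filaments and speed the loss of monomers from their ends, and CAP1 works with cofilin to recharge the released monomers. The mRNA of each ends in a poly(A) tail added after cleavage, which takes place shortly downstream of a poly(A) signal, usually AAUAAA or its variant AUUAAA. Only these forms were counted as a poly(A) signal here. A gene with several such signals can make mRNAs with short or long 3′ UTRs.

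The sequences of the peak ends show whether the tallest PABPC4 peaks held a poly(A) signal near their end. Below are the last 30 nt of the tallest PABPC4 peak of each gene except TMSB4X, whose tallest peak held no signal. They were read from hg38 and written 5′ to 3′ on the gene's strand with T for U. Capitals mark the poly(A) signal.
TMSB10, chr2:84906646-84906675, plus strand: atgaaAATAAAacacacctcgtggcatggc
CFL1, chr11:65854797-65854826, minus strand: aagacaatAATAAAaaggctcattaatggg
CFL2, chr14:34712014-34712043, minus strand: gccacgttgcAATAAAaattgtggcatatt
DSTN, chr20:17608213-17608242, plus strand: ttatgtAATAAAggaagcatttttgactta
PFN1, chr17:4945652-4945681, minus strand: ttttctgAATAAAaaagattctactaacaa
PFN2, chr3:149964905-149964934, minus strand: agacagatgaAATAAAtttattccaaccaa
CAP1, chr1:40072242-40072271, plus strand: actttaaaaggaaaaaaaaaaaaaaaaaaa
The first 6 each hold AATAAA, while the tallest CAP1 peak ends in a genomic run of 19 A with no signal. The lower CAP1 peak, at the annotated 3′ end, does hold one. So do the last 30 nt before the main annotated end of TMSB4X, which its peaks did not reach.
CAP1, chr1:40072619-40072648, plus strand: gaaaatagAATAAAgttaataccaaacttg
TMSB4X annotated end, chrX:12977194-12977223, plus strand: tttttaatatgcaAATAAAaagtttaaaaa

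PABPC4 peaks were found in 8 of 8 genes, and 8 of 8 had one in the 3′ UTR, against 59.2% and 48.7% of RefSeq protein-coding genes. HNRNPC peaks were found in 2 of 8, CFL1 and PFN1, both in the 3′ UTR, against 19.0% of protein-coding genes with an HNRNPC peak anywhere and 1.98% with one in a 3′ UTR. Height is the number of tags over the summit of a peak. It counts tags at a single place, so it does not add up along a 3′ UTR, but more mRNA and more binding per mRNA cannot be told apart in it, nor can fewer cells with the mRNA and less mRNA per cell. The tallest PABPC4 3′ UTR peak, with the exact 95% Poisson interval of its count, was 6248 tags high in TMSB10 (6094 to 6405). It was 4213 tags high in CFL1 (4087 to 4342) and 3961 in PFN1 (3839 to 4086). Those of CAP1 and DSTN had 1072 tags (1009 to 1138) and 308 tags (275 to 344). The lowest were 163 tags in PFN2 (139 to 190), 88 in TMSB4X (70.6 to 108) and 53 in CFL2 (39.7 to 69.3). No neighbouring pair in this order had overlapping intervals, which cover counting error only and say nothing of the spread between samples.

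**Figure D1:**
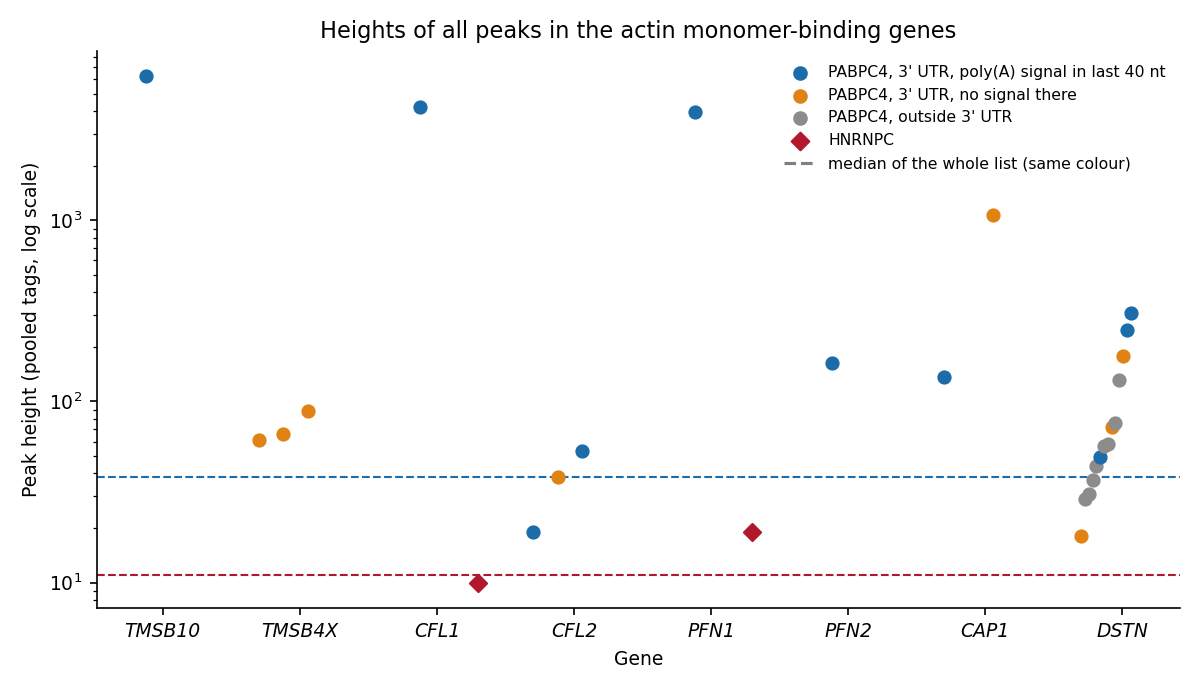
Height in pooled tags (log scale) of each of the 26 PABPC4 peaks (circles) and 2 HNRNPC peaks (diamonds) by gene, with dashed lines at the list medians of 38 tags for PABPC4 and 11 tags for HNRNPC. TMSB10, CFL1 and PFN1 each have 1 tall PABPC4 peak with a poly(A) signal, while DSTN has 14 peaks from 18 to 308 tags.

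The genes differed widely in height. Among the 9878 genes with a PABPC4 3′ UTR peak, TMSB10 ranked 5, CFL1 ranked 12 and PFN1 ranked 13 by the tallest peak. CAP1 ranked 154 and DSTN ranked 951. PFN2 ranked 2198, TMSB4X 4193 and CFL2 5992, the last below the median gene, whose tallest peak had 73 tags. By the summed height of all 3′ UTR peaks, TMSB10 ranked 6, CFL1 27, PFN1 28, CAP1 203 and DSTN, with its 6 peaks, 307. TMSB4X, with 3 peaks, then ranked 2449, before PFN2 at 3293, and CFL2 ranked 4575. The median over the 8 genes was 690 tags. TMSB10 alone held 35.8% of the summed height of their 26 peaks, and with CFL1 and PFN1 the share was 82.6%. Among relatives, TMSB10 was higher than TMSB4X, CFL1 than CFL2 and PFN1 than PFN2. DSTN, grouped above with the cofilins, ranked between CFL1 and CFL2. PFN2 and TMSB4X, though lower than their relatives, were above the median gene by the tallest peak.

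**Figure D2:**
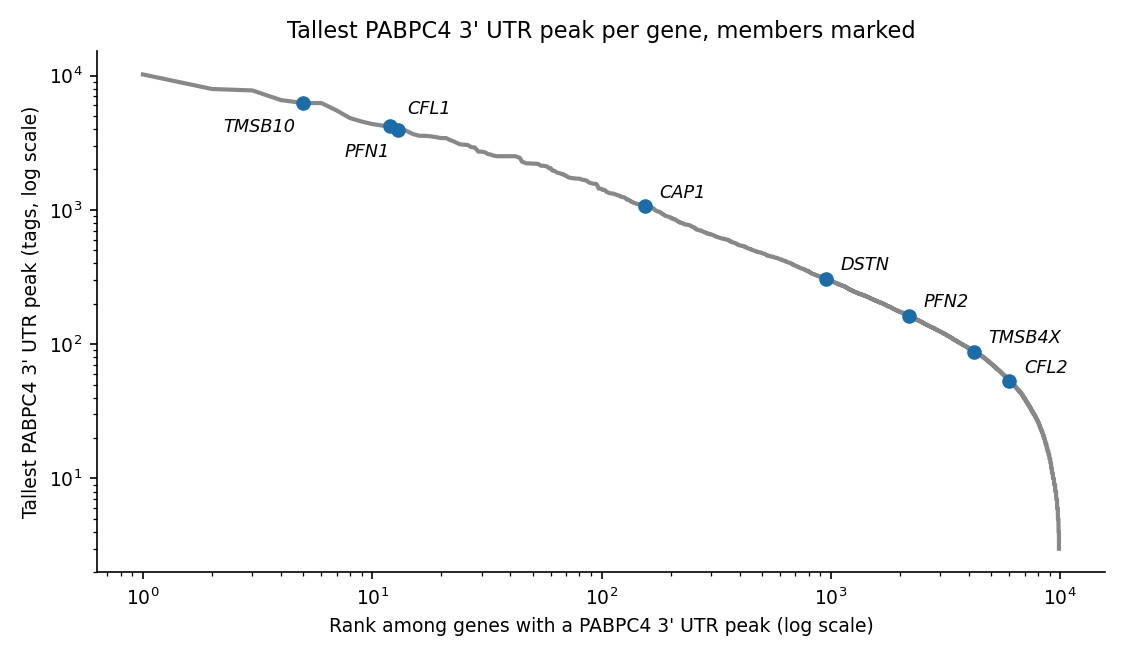
Tallest PABPC4 3′ UTR peak in tags (log scale) against the rank of the gene (log scale) for 9878 genes (line), with the 8 actin monomer-binding genes as points. TMSB10, CFL1 and PFN1 lie within the first 13 ranks, and CFL2, at rank 5992, lies below the median of 73 tags.

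TMSB10 had 1 peak, at chr2:84906428-84906675 on the plus strand of hg38, and no other entry in either list. It was 248 nt wide, against a median of 47 nt in the PABPC4 list, and covered 98.4% of the annotated 3′ UTR, which is also 248 nt long. The peak ended 4 nt past the annotated 3′ end. The poly(A) signal printed above started 25 nt before the peak end. The height was 18.9 times the 331.24 tags that the peak caller expected in this gene by chance. The genes just above it in height were GAPDH, a glycolytic enzyme, with 7950 tags, HMGA1, a chromatin protein, with 7753, and ACTN4, an actin filament cross-linker, with 6570. Just below were TUBA1B, an α-tubulin, with 6245 tags, RPS21, a ribosomal protein, with 5493, and MYL6, a myosin light chain, with 4824. The counting intervals of ACTN4 (6412 to 6731) and TMSB10 did not overlap, while that of TUBA1B (6091 to 6402) overlapped almost wholly with that of TMSB10. Of these 6 genes, 5 had a poly(A) signal in the last 40 nt of the tallest peak, and TUBA1B did not.

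TMSB4X differed from TMSB10 in number, height and place of its peaks. It had 3 low peaks in the 3′ UTR, of 61 tags at chrX:12976975-12977031, 88 tags at chrX:12977048-12977098 and 66 tags at chrX:12977145-12977194, and the tallest held 40.9% of their summed height (95% Wilson interval 34.6 to 47.6%). None held AAUAAA or AUUAAA in its last 40 nt, while the 88-tag peak held AGUAAA, another variant, there. The last ended 29 nt before the main annotated 3′ end, and the AAUAAA of TMSB4X, which starts 16 nt before that end, lay downstream of it. Another annotated end, at chrX:12977081, lay 17 nt before the end of the 88-tag peak and 50 nt after that of the 61-tag peak.

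The 3′ UTR of TMSB4X also has more near-identical copies elsewhere in the genome. The reference annotation names 6 pseudogenes after TMSB4X and 2 after TMSB10. Windows of 47 nt, the median width of a PABPC4 peak, were taken every 10 nt along each 3′ UTR and searched on both strands of hg38. In TMSB4X, 33 of 37 windows had another place within 2 mismatches, or 89.2%, against 3 of 21 in TMSB10. A window at every position, a search made after seeing those values, showed no exact copy for 80 of 366 TMSB4X windows and for 202 of 202 TMSB10 windows. The windows without an exact copy formed 3 runs in TMSB4X, chrX:12976949-12977041, chrX:12977027-12977100 and chrX:12977145-12977195, and each run held 1 of the 3 peaks whole. All 20 windows that lay wholly inside a TMSB4X peak had no exact copy, against 60 of the 346 other windows. How tags with several equal places were treated is not given in the sources used here. The part of these copies in the TMSB4X heights was not tested.

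**Figure D3:**
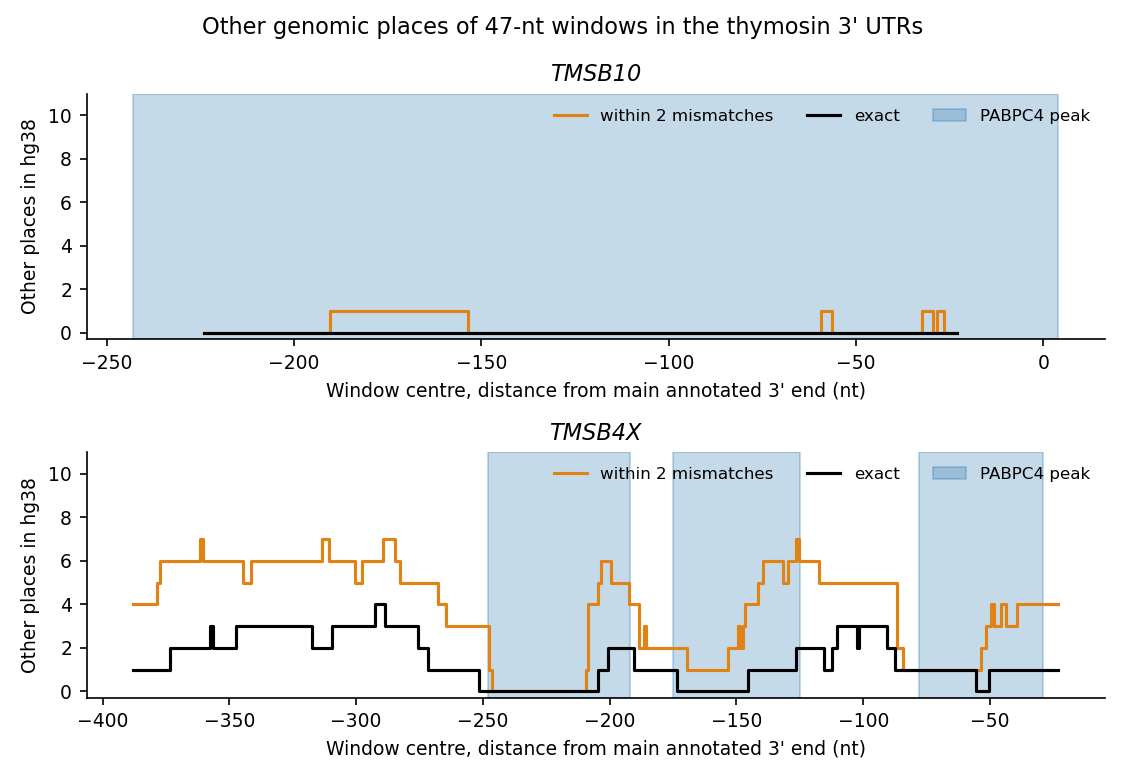
Number of other places in hg38 that match each 47-nt window of the 3′ UTR exactly (black) or within 2 mismatches (orange), against the distance of the window centre from the main annotated 3′ end, for TMSB10 and TMSB4X, with PABPC4 peaks shaded. Exact copies are at 0 along all of TMSB10, and the 3 TMSB4X peaks lie over the 3 stretches where they reach 0.

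In CFL1, the cofilin of non-muscle cells, 1 PABPC4 peak lay at chr11:65854797-65855103 on the minus strand. It was 307 nt wide and had 4213 tags, with AAUAAA starting 22 nt before its end. CFL1 was the only gene with no PABPC4 peak ending within 50 nt of an annotated 3′ end. The end of its peak lay 124 nt before the main annotated 3′ end and 122 nt before the nearest one. Other annotated ends, at chr11:65854975, chr11:65855009 and chr11:65855054, lay inside the peak. The last 30 nt before the main end held no signal. Both poly(A) signals of the CFL1 3′ UTR lay inside the peak. The peak covered 46.3% of the 663-nt 3′ UTR. Of 62 windows of 47 nt in this 3′ UTR, 27 had another place within 2 mismatches, but 614 of 617 windows had no exact copy, and the annotation names 8 CFL1 pseudogenes.

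CFL2, the cofilin best known from muscle, had 3 low peaks in a 3′ UTR of 3752 nt. The tallest, 53 tags at chr14:34712014-34712086, ended 3 nt before an annotated 3′ end near the start of the 3′ UTR and held 48.2% of the 3′ UTR height (39.1 to 57.4%). The others had 38 tags and no signal, and 19 tags with a signal starting 18 nt before the end of the peak. No peak lay at the distal end of the main transcript, which is 2901 nt downstream of the tallest peak.

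DSTN had the most peaks, 14, and was the only one of the 8 genes with PABPC4 peaks outside the 3′ UTR. From 5′ to 3′, the 5′ UTR held 1 peak of 132 tags, introns held peaks of 31, 57, 29, 44, 37 and 58 tags, and the coding sequence held 1 of 76 tags. The 3′ UTR held peaks of 178, 49, 18, 249, 72 and 308 tags, in total 65.3% of the DSTN height (62.7 to 67.8%). The tallest, at chr20:17608132-17608242, ended exactly at an annotated 3′ end, with AAUAAA starting 24 nt before it. That end lies 1677 nt upstream of the end of the main transcript, where no peak was listed although AAUAAA is also present there. The second tallest peak, of 249 tags, had its own AAUAAA starting 22 nt before its end and no annotated end within 239 nt. A stretch rich in A, meaning 6 A in a row or 7 in 10 nt, lay within 50 nt downstream of 7 of the 8 DSTN peaks outside the 3′ UTR, the exception being the one in the 5′ UTR. Over all 44619 PABPC4 peaks outside 3′ UTRs the share was 69.7%, and over intron peaks 71.2%. Such stretches can also start reverse transcription, and their part in these peaks was not tested.

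In PFN1, the profilin found in most cells, the PABPC4 peak at chr17:4945652-4945843 on the minus strand was 192 nt wide and 3961 tags high. It ended exactly at the annotated 3′ end, its AAUAAA started 23 nt before that end, and it covered 77.4% of the 248-nt 3′ UTR. PFN2, the profilin best known from neurons, had 1 peak of 163 tags at chr3:149964905-149965003. It ended 1 nt before the annotated 3′ end, with AAUAAA starting 20 nt before the peak end, and was also listed under the neighbouring gene ANKUB1. Some other annotated ends of PFN2 lay inside this peak, and those further upstream had no peak. Of 154 windows of 47 nt in the PFN2 3′ UTR, 0 had another place within 2 mismatches, and in PFN1 it was 2 of 21.

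The taller CAP1 peak lay away from an annotated end. The peak of 1072 tags at chr1:40072080-40072271 held 88.7% of its 3′ UTR height (86.8 to 90.3%), had no poly(A) signal, and ended 244 nt before the nearest annotated 3′ end. Its last 19 nt are all A in the genome, as the sequence above shows. Among all 18888 PABPC4 3′ UTR peaks, 39 ended in at least 15 A, or 0.206%. The other CAP1 peak, of 137 tags at chr1:40072577-40072648, ended exactly at the main annotated end with AAUAAA starting 22 nt before it. Another place within 2 mismatches was found for 82 of 107 windows of the CAP1 3′ UTR. Of the 172 windows at every position that lay inside its peaks, 172 had no exact copy. The part of the run of A in the taller peak was not tested.

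**Figure D4:**
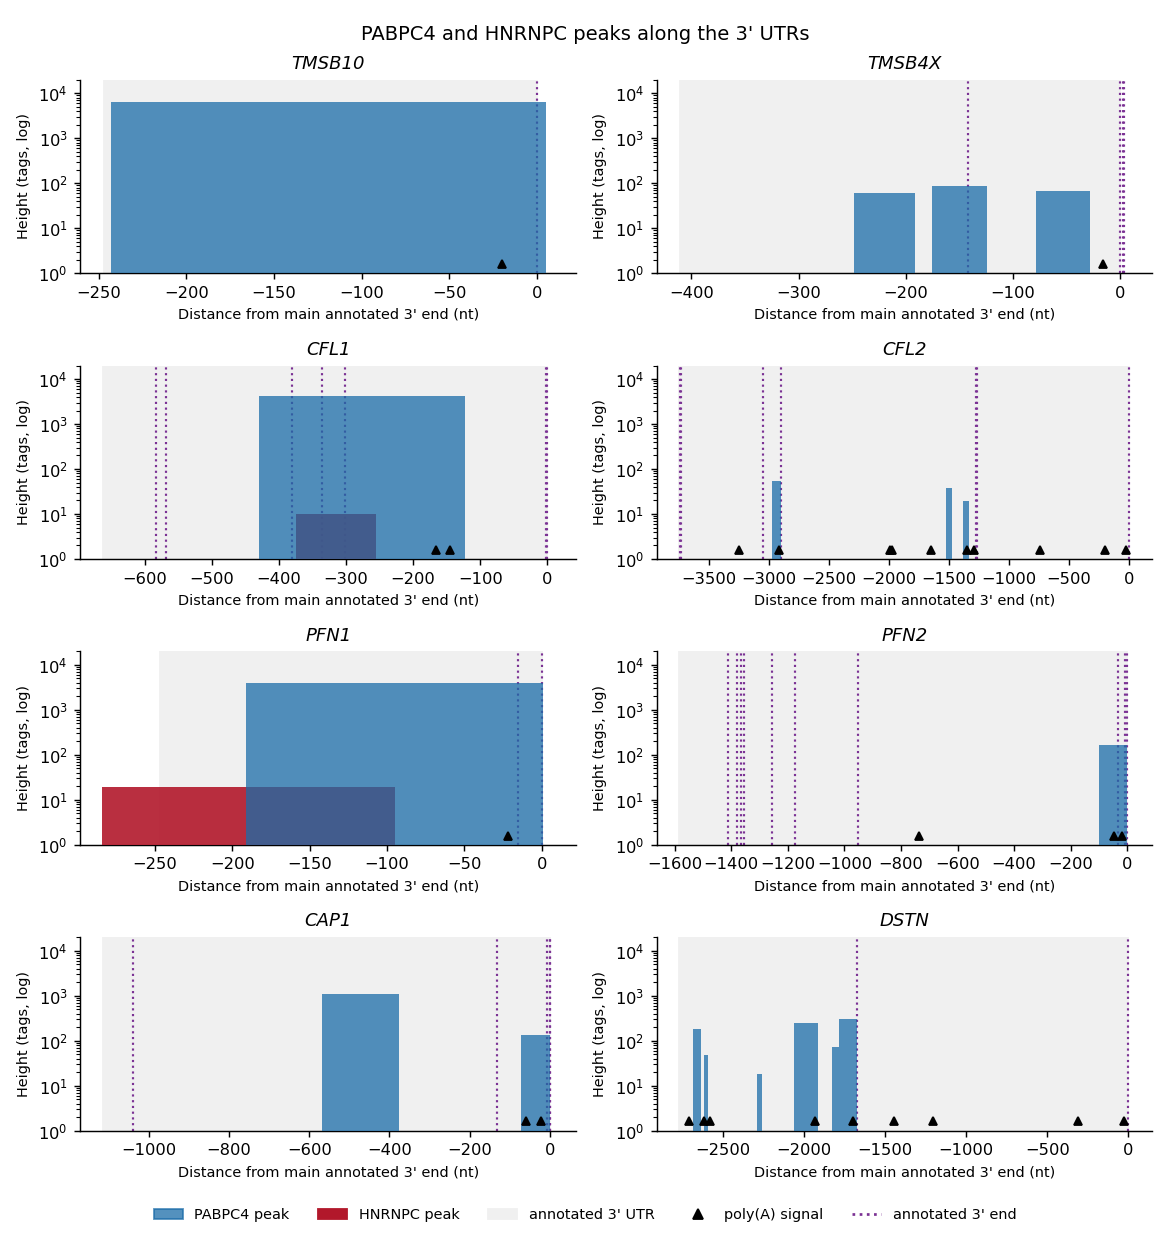
Peaks along the 3′ UTR of each gene, with the distance from the main annotated 3′ end in nt on the horizontal axis and the height in tags (log scale) on the vertical axis. PABPC4 peaks (blue) reach the main end (0) in TMSB10, PFN1, PFN2 and CAP1 and stop short of it in TMSB4X, CFL1, CFL2 and DSTN, and HNRNPC peaks (red) are present in CFL1 and PFN1.

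Considered together, 18 of the 26 PABPC4 peaks were in 3′ UTRs, against 18888 of 63507 peak positions in the whole list. These 18 peaks held 97.3% of the height of the 8 genes (97.1 to 97.6%), against 45.9% over the whole PABPC4 list. The last 40 nt held a poly(A) signal in 10 of 18 peaks, or 55.6% (33.7 to 75.4%), and in 47.1% of all PABPC4 3′ UTR peaks, which lies inside that interval. Counted by height, peaks with a signal held 90.6% of the 3′ UTR height in these genes and 62.9% over all genes. An A-rich stretch lay downstream of 3 of 18 peaks, or 16.7% (5.84 to 39.2%), against 32.0% of all 3′ UTR peaks. The last 20 nt of the peak itself were A-rich by the same rule in 5 of 18 peaks, or 27.8% (12.5 to 50.9%), against 22.0% of all 3′ UTR peaks: the peak of PFN1, the 1072-tag peak of CAP1, the 53-tag and 19-tag peaks of CFL2 and the 61-tag peak of TMSB4X. Of the 18 peaks, 9 ended within 50 nt of an annotated 3′ end, or 50% (29.0 to 71.0%), against 48.6%. These peaks made up 63.5% of the summed peak height of the 8 genes (62.8 to 64.2%), against 29.7% over the list. Sums of heights add the summits of separate peaks and are not tag totals of a gene. The intervals of shares by height treat tags as independent counts and leave out the spread between peaks and between genes. By peak number, the 8 genes were thus close to the background in signal and in annotated ends. The larger shares by height rest on TMSB10, CFL1 and PFN1 for the signal and on TMSB10 and PFN1 for the ends. The 3′ UTR share by height also rests on TMSB10, CFL1 and PFN1, which held 82.6% of the height. Since the set was chosen by PABPC4 height, the shares by height are only a description. In 7 of 8 genes at least 1 peak ended near an annotated end, the exception being CFL1. The same share over all genes was not calculated, so this count is only a description.

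Where a signal was present, its place varied little. In the 10 peaks it started from 25 to 18 nt before the peak end. Over all 8903 PABPC4 3′ UTR peaks with a signal, the median start was 21 nt before the end (quartiles 24 and 18 nt), with the most frequent value at 20 nt. TMSB10 had the most distant signal of the 10, at 25 nt, just outside the quartiles.

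**Figure D5:**
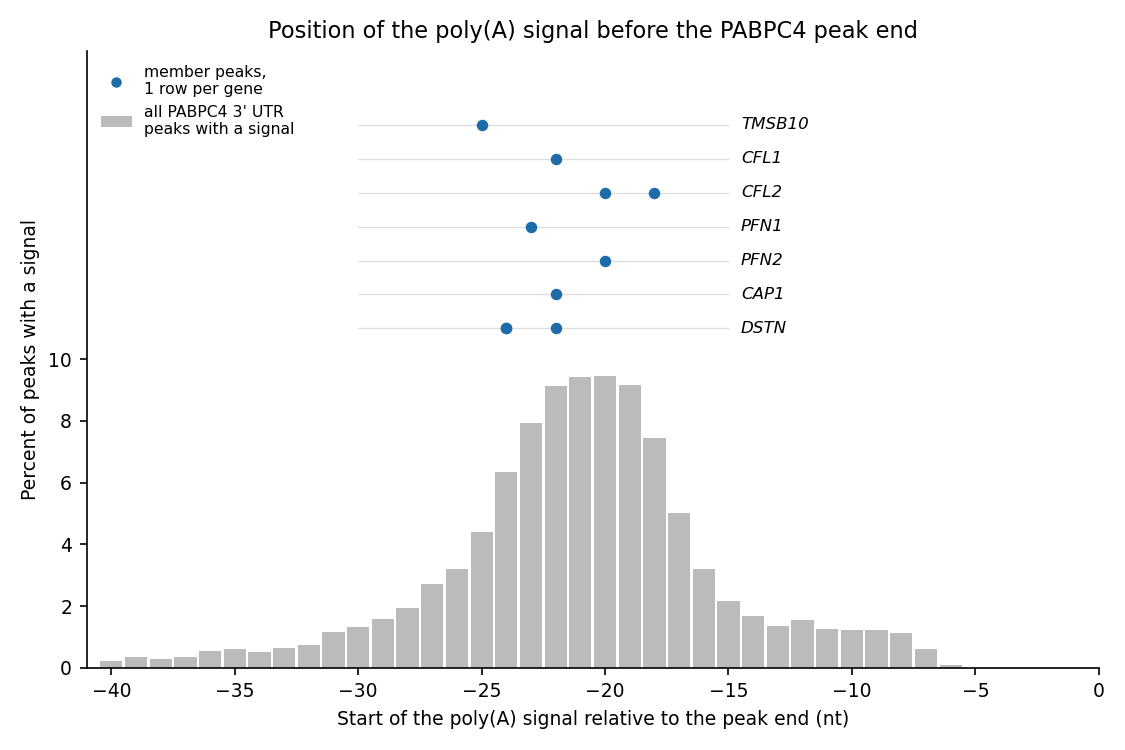
Percent of the 8903 PABPC4 3′ UTR peaks with a poly(A) signal (bars) by the start of the signal relative to the peak end in nt, with the 10 peaks of the actin monomer-binding genes as points in 1 row per gene, where 2 DSTN peaks share a point at -24. All 10 lie between -25 and -18, around the median of -21.

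HNRNPC peaks were listed in CFL1 and PFN1, 1 in each. TMSB10, TMSB4X, CFL2, PFN2, CAP1 and DSTN had none. In CFL1 the peak at chr11:65854930-65855047 on the minus strand was 118 nt wide and 10 tags high, against a median of 11 tags over the 452 HNRNPC 3′ UTR peaks, and ranked 243 among them. In PFN1 the peak at chr17:4945748-4945936 was 189 nt wide and 19 tags high, and ranked 87. Both overlapped the PABPC4 peak of their gene. All 118 nt of the CFL1 peak lay inside it, and of the PFN1 peak 96 nt did, or 50.8%. Such an overlap on the same strand was present for 7.3% of the 452 HNRNPC peaks in 3′ UTRs. The 3′ ends of the HNRNPC peaks lay 133 nt (CFL1) and 96 nt (PFN1) before the end of the PABPC4 peak, upstream of the poly(A) signal. With 2 peaks this is a description of both genes.

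HNRNPC is known to bind U runs, and an example from the CFL1 peak is shown, in capitals.
CFL1, chr11:65855031-65855060, minus strand: gggagcctgtaTTTTTTTTaacaacatccc
The run of 8 in CFL1 starts 2 nt upstream of the 5′ end of the peak and runs into it. A run of at least 5 U was present in 13.7% of HNRNPC 3′ UTR peaks, and in 20.5% of PABPC4 3′ UTR peaks.

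Other genes of actin turnover were counted beside these values. There were 26 such genes (actins, further thymosins and profilin, twinfilins, coronins, LIM kinases, slingshot phosphatases and actin-responsive transcription factors). Of these, 22 had a PABPC4 peak, 21 of them in the 3′ UTR, against 59.2% and 48.7% of protein-coding genes. The median tallest 3′ UTR peak of the 21 genes was 93 tags, against 73 over all genes. It was 690 in the 8 genes, which were chosen by this height, so the difference is only a description. The tallest were in ACTG1, cytoplasmic γ-actin, with 3678 tags (rank 15), ACTB, β-actin, with 975 (rank 175), and CORO1C, a coronin, with 878 (rank 200). TMSB15A, TMSB15B, PFN4 and CYFIP1 had no PABPC4 peak. HNRNPC peaks were present in 11 of the 26 genes, against 19.0% of protein-coding genes. In the 3′ UTR they were present in 2 of the 26, against 1.98%. These were ACTB, with 3 of its 6 peaks there, and ACTG1, with 1 of 2. The tallest had 56 tags in ACTB and 62 in ACTG1, higher than the 10 tags of CFL1 and the 19 of PFN1. The other 9 genes had HNRNPC peaks outside the 3′ UTR: CAP2 had 3, WDR1 5, SSH1 3, SSH2 4 and MRTFB 2, and COTL1, CORO1C, LIMK1 and DIAPH1 had 1 each. No pseudogene of the 8 genes held a peak on its own strand. A PABPC4 peak of 32 tags and an HNRNPC peak of 56 tags lay opposite PFN1P2 and PFN1P6, listed under NBPF8 and NBPF15.

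The identity of the cells was checked on marker genes. VIM, the intermediate filament of mesenchymal cells, had the tallest PABPC4 3′ UTR peak of all genes, with 10197 tags, and CD44, a surface receptor high in this line, had 331. Of the markers that the line should lack, the progesterone receptor PGR had no peak and the oestrogen receptor ESR1 had none in its 3′ UTR, with a tallest peak of 7 tags elsewhere. CDH1, the epithelial cadherin, was not without peaks: it had 3 PABPC4 peaks, 1 of them in the 3′ UTR. That peak had 56 tags and a poly(A) signal, below the median of 73 tags over genes with a 3′ UTR peak.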

How the data were processed

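The authors collapsed HNRNPC reads by molecular identifier (UMI-tools), trimmed them with cutadapt (quality 15), aligned them to hg38 with BWA 0.7.17, removed duplicates, pooled both samples and used the CLIP Tool Kit for peak calling. How PABPC4 tags were processed is not given on its own in the sources used here. The signal deposited for each peak is its height in pooled unique tags, not scaled to depth. Library read totals were not analysed here. The HNRNPC list is named for HITS-CLIP, while the labels give irCLIP. The caller's p-values reached 0.1 (HNRNPC) and 0.05 (PABPC4).

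Each position was counted once. Peaks were assigned by their centre to GENCODE 44 features (3′ UTR first), and Gene IDs were matched through RefSeq for 4090 of 4098 (HNRNPC) and 13155 of 13189 (PABPC4). Annotated 3′ ends were those of complete protein-coding transcripts. Shares have 95% Wilson intervals. For shares by height these cover counting error over tags only. Feature assignment was tested on a made-up annotation and the copy search on simulated data (Python 3.11.15, pandas 2.3.3, scipy 1.17.1). Named were the 8 genes, the 3 genes above and the 3 below TMSB10 in height, other actin turnover genes with an HNRNPC peak or 1 of the 3 tallest PABPC4 peaks, and pseudogenes with a peak. The genes and lists were chosen with earlier results of these data known. Alternatives changed the p-value limit, height minimum, gene assignment, and signal, A-rich and end windows. A further sequence is not reported here.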

Additional observations from a re-analysis of the deposited data

How the results depend on the processing

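Of 104 recalculations, 89 stayed within the counting interval of the value reported (counts, near it) and 15 moved further. Not all of them could move. Every peak of the 8 genes passed the stricter p-value limit of 0.001. In TMSB10, CFL1 and PFN1 the only 3′ UTR peak held 100% of the height wherever it was kept. No paired analysis was possible because each list merges its 2 samples, and for the same reason leaving out replicates was not run. Counting every listed entry put 50% of the PFN2 3′ UTR height in the tallest peak, since its peak was listed under 2 genes. With peaks at or above the median height, 97.9% of the height of the 8 genes was in 3′ UTRs and the tallest CFL2 peak held 58.2%. The HNRNPC count was not recalculated there, although the CFL1 HNRNPC peak of 10 tags lies below the list median of 11. The A-rich share of 3′ UTR peaks was 5.56% within 20 nt and also 5.56% with 6 A in a row only. With ends within 25 nt, 62.8% of height was near an annotated end. By the tallest peak in any feature TMSB10 ranked 8. Without peaks that have an A-rich stretch downstream, 99.2% of height was in 3′ UTRs, 64.4% was near an annotated end, and the tallest peak held 59.1% in TMSB4X, 58.2% in CFL2 and 100% in CAP1 (the 1072-tag peak). Without peaks A-rich in their last 20 nt, a setting added once the data had been seen, the shares were 57.1% in TMSB4X, 100% in CFL2 and 100% in CAP1 (the 137-tag peak), and no PFN1 peak was left. The CAP1 peak called the main one thus depends on where A-rich sequence is sought. Depth was not varied, since library read totals were not analysed here, and the counting intervals are widest, relative to the height, for the lowest peaks.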
